A study of Danio rerio with 2 samples.

Results

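The matrix metalloproteinases (MMPs) and tissue inhibitors of metalloproteinases (TIMPs) of the adult zebrafish jaw joint were described from single-cell RNA sequencing. The genes were taken by symbol from a list that was chosen with earlier results of these data known. They comprise 6 proteases (*mmp2*, *mmp9*, *mmp13a*, *mmp13b*, *mmp14a*, *mmp14b*) and 3 inhibitors (*timp2a*, *timp2b*, *timp4.1*), and all 9 were found among the 36355 features. The feature list holds a further 18 MMP and 2 TIMP genes.

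MMPs are zinc-dependent enzymes, secreted or held at the cell membrane, that cut the collagens and proteoglycans of the extracellular matrix. Most are made as inactive precursors. In mammals MMP14 activates the precursor of MMP2 at the cell surface with TIMP2 as the bridge between them, and higher doses of TIMP2 block the same enzymes. In mammalian bone and growth cartilage, MMP13 and MMP9 take part in the removal of calcified matrix and in remodeling.

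The cells came from 50 pooled jaw joints of 3-month-old fish that carried both the *sox10:DsRed* and the *trps1:eGFP* transgenes, and none of the joints was injured or treated. The joints were dissociated with trypsin and collagenase. One sort kept live DsRed-positive cells with or without GFP (the *sox10:DsRed*-enriched library) and the other kept GFP-positive cells (the *trps1:eGFP*-enriched library), with 1 library per sort. The *sox10* transgene marks a subset of chondrocytes and the *trps1* transgene marks joint mesenchyme broadly, so each library holds the cells its gate let through. With 1 library per sort, the intervals given here cover counting error only, and no difference was tested.

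From the *sox10:DsRed* sort there were 462 barcodes with 1073482 unique molecular identifiers (UMIs, each marking 1 captured transcript). From the *trps1:eGFP* sort there were 4876 barcodes with 17424489 UMIs. After limits on gene number and mitochondrial RNA and removal of 366 epithelial-like and 26 endothelial-like cells, 3769 cells were clustered (241 and 3528 from these libraries), with all MMP and TIMP genes left out of the clustering. Both libraries held 16 of the same barcode sequences. In 12 of these pairs the barcode in the *sox10:DsRed*-enriched library was the deeper one (8313 to 19975 UMIs, against 506 to 1168 UMIs in the *trps1:eGFP*-enriched library). In the other 4 the *trps1:eGFP*-enriched barcode was deeper (1776 to 10415 UMIs, against 624 to 1484 UMIs). Among them a pre-osteoblast-like cell of 1484 UMIs had an epithelial-like counterpart of 10415 UMIs. A chondrocyte-like cell of 997 UMIs had a counterpart of 4597 UMIs among the connective tissue and dermal fibroblast cells. In the *sox10:DsRed*-enriched library 2 of the 34 pre-osteoblast-like and 6 of the 15 osteoblast-like cells carried a barcode of both libraries. Values of the 9 genes that rest on these cells are given without them as well where they moved by over 1.5 times.

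Clusters took a "-like" name from marker genes that included no MMP or TIMP. The pre-osteoblast-like cluster (72 cells, 34 from the *sox10:DsRed*-enriched and 38 from the *trps1:eGFP*-enriched library) met the rule with all 10 of its listed markers, among them *tnfrsf11b*, *nfe2* and *spp1*. Some of these markers were chosen in the study on the same libraries, so they are no independent check of the name. The study defined its own pre-osteoblast cluster by high MMP expression, above all *mmp9* and *mmp13b*. Markers taken from that cluster can carry its MMP pattern with them, so high *mmp9* and *mmp13b* in the cells named here are no independent result. The name was given to the cluster with both libraries pooled, and its marker support was uneven. *tnfrsf11b* was found in 8 of the 34 *sox10:DsRed*-enriched and 18 of the 38 *trps1:eGFP*-enriched cells. The osteoblast marker *bglap* was found in 4 and 22 of them. Whether the cluster holds like cells in both libraries was not tested. There were 191 osteoblast-like cells (15 and 176 from these libraries). The 103 superficial chondrocyte-like and 75 ligamentocyte-like cells were all from the *trps1:eGFP*-enriched library, whereas 151 of 154 chondrocyte-like and 35 of 36 glia-like cells were from the *sox10:DsRed*-enriched library. The remaining 9 clusters (3138 cells, all but 6 from the *trps1:eGFP*-enriched library) formed a connective tissue and dermal fibroblast pool. Within that pool the rule named the *mamdc2b*-led cluster (340 cells) dermal fibroblast-like and the *ccl19a.1*-led cluster (90 cells) connective tissue-like, while the other 7 clusters met no marker rule and are called by a leading gene.

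**Figure D1:**
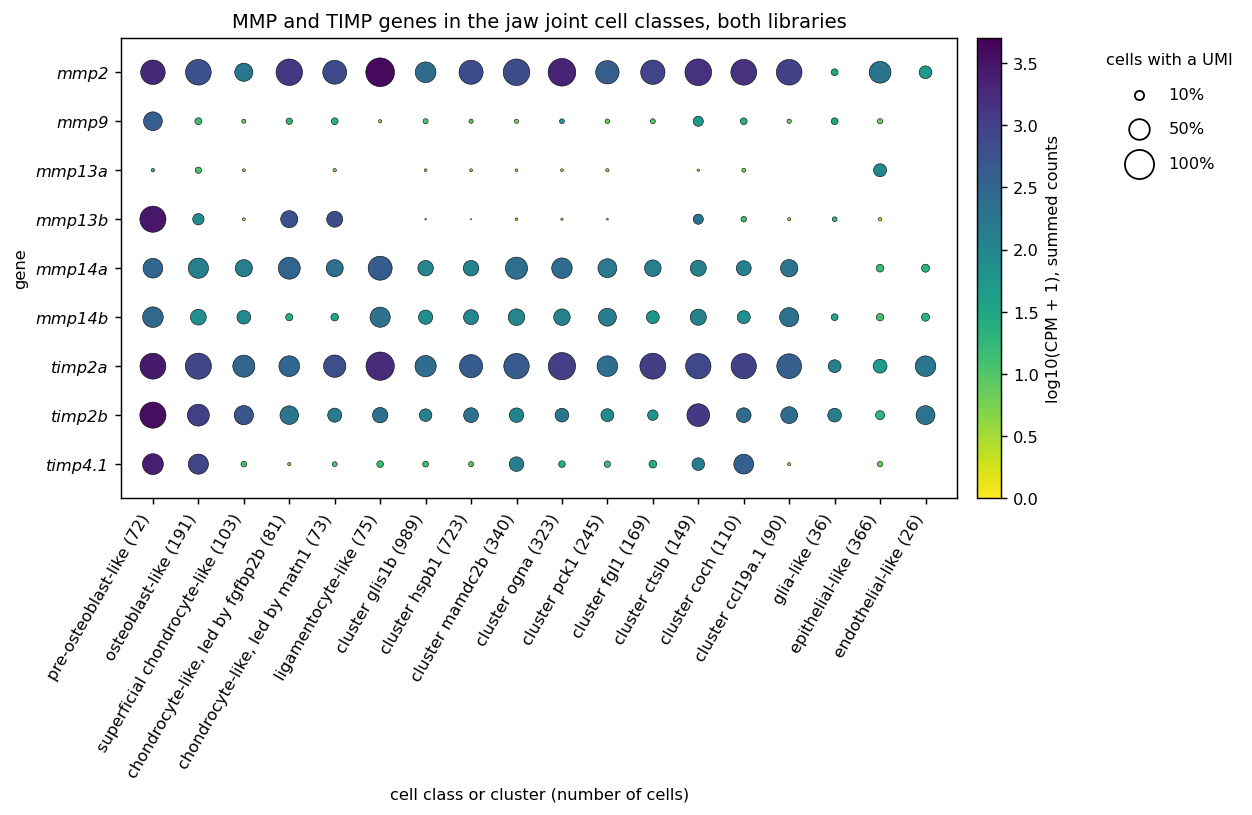
Each dot stands for 1 gene (rows) in 1 cell class or cluster (columns, with its number of cells), both libraries together. Dot area gives the percentage of cells with at least 1 UMI and color gives log10(CPM + 1) of the summed counts. *mmp13b* and *mmp9* were highest in the 72 pre-osteoblast-like cells, *mmp2* in the 75 ligamentocyte-like cells, and *mmp13a* in the 366 epithelial-like cells.

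*mmp13b*, 1 of the 2 zebrafish genes related to the collagenase MMP13, was found mainly in pre-osteoblast-like cells and in a minority of chondrocyte-like cells. In pre-osteoblast-like cells it had 552 UMIs in 25 of 34 cells of the *sox10:DsRed*-enriched library and 588 UMIs in 33 of 38 cells of the *trps1:eGFP*-enriched library. This corresponds to 73.5% (95% exact binomial interval, 55.6 to 87.1%) and 86.8% of cells (71.9 to 95.6%). Its level was 3920 counts per 1000000 UMIs (CPM, with a 95% exact Poisson interval of 3599 to 4261) in the first library and 2423 CPM (2231 to 2627) in the second. Osteoblast-like cells of the same libraries had 25 UMIs in 8 of 15 cells (162 CPM, 105 to 239) and 83 UMIs in 21 of 176 cells (75.8 CPM, 60.4 to 94.0). Both pre-osteoblast-like values were above both osteoblast-like values, with no overlap of their intervals. Pooled over the libraries, the *mmp13b* level was 34.4-fold higher in pre-osteoblast-like than in osteoblast-like cells (counting interval, 28.2 to 42.3). The ratio was 24.2 within the *sox10:DsRed*-enriched library and 32.0 within the *trps1:eGFP*-enriched library, both below the pooled ratio. The pooled ratio mixes class with library, because these libraries gave 34 and 38 pre-osteoblast-like but 15 and 176 osteoblast-like cells.

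The *mmp13b* counts were unevenly spread over the pre-osteoblast-like cells. The 4 cells with the most *mmp13b* held 44.7% of its UMIs in the *sox10:DsRed*-enriched library and 63.1% in the *trps1:eGFP*-enriched library. The highest single cells had 66 UMIs and 135 UMIs in these libraries. The median over *mmp13b*-positive cells was 11 UMIs in the first library and 5 UMIs in the second. After each cell was thinned to 1000 UMIs, 64.7% and 44.7% of the pre-osteoblast-like cells of these libraries still had an *mmp13b* UMI. Free RNA can give stray UMIs, and its level was not estimated. For comparison, 1 of 35 glia-like cells of the *sox10:DsRed*-enriched library had an *mmp13b* UMI (2.86%, at a median of 1306 UMIs per cell). In the *trps1:eGFP*-enriched library 5 of 365 epithelial-like cells had 1 (1.37%, median 5904 UMIs). Median depth of the pre-osteoblast-like cells was 3299 UMIs and 5956.5 UMIs in these libraries.

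In chondrocyte-like cells of the *sox10:DsRed*-enriched library *mmp13b* had 263 UMIs in 49 of 151 cells (32.5%, 25.1 to 40.5%), a level of 610 CPM (539 to 688). The 16 cells with the most *mmp13b* held 78.3% of these UMIs, and the highest cell had 35. Pre-osteoblast-like cells of this library were 6.42-fold higher (5.54 to 7.47). The 2 chondrocyte-like subclusters, led by *fgfbp2b* (81 cells) and *matn1* (73 cells), had close levels of 603 CPM (508 to 710) and 726 CPM (614 to 851). *mmp13b* was found in 13 of 34 cells with *ihha*, a ligand made by prehypertrophic chondrocytes, and in 36 of 117 cells without it. It was found in 8 of 19 cells with the hypertrophic collagen gene *col10a1a* and in 41 of 132 cells without it. At 1000 UMIs per cell the *ihha* shares were 21.7% of 23 cells and 17.3% of 127 cells. The *col10a1a* shares were 6.67% of 15 cells and 19.3% of 135 cells, the reverse order but on few cells. Neither gene was read as marking the *mmp13b* cells, and these counts are too small to settle the question.

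Outside these classes *mmp13b* was rare. The 103 superficial chondrocyte-like cells held 1 UMI and the 75 ligamentocyte-like cells held 0, which allows a level of up to 10.3 CPM and a *mmp13b* UMI in up to 4% of cells. The connective tissue and dermal fibroblast pool held 144 UMIs in 32 of 3132 cells of the *trps1:eGFP*-enriched library. Of the 145 UMIs in both libraries, 129 lay in 18 of the 149 cells of the *ctslb*-led cluster (194 CPM, 162 to 231), and 5 of those cells had at least 10 UMIs. In that cluster's *trps1:eGFP*-enriched cells, *spp1* was found in 12 of 17 cells with *mmp13b* and in 56 of 131 cells without it, and *tnfrsf11b* in 5 of 17 and 5 of 131. The cells with *mmp13b* were also deeper (median 5274 UMIs, against 3631 UMIs in cells without it). At 1000 UMIs per cell *spp1* was found in 70% of 10 cells with *mmp13b* and in 17.4% of 138 cells without it, and *tnfrsf11b* in 20% and 1.45%. The thinned shares were 20% and 4.35% for *mmp9* and 40% and 39.1% for *timp2b*. *acta2*, *ctsk* and *col10a1a* were in 0% of the 10 thinned cells with *mmp13b*, against 13.8%, 7.97% and 4.35% without it. A count of 0 in 10 cells does not resolve a difference from such shares. Before thinning all of these genes were more frequent in cells with *mmp13b*.

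*mmp9*, which encodes a gelatinase that degrades denatured collagen, was high in pre-osteoblast-like cells and low elsewhere. Pre-osteoblast-like cells had 97 UMIs in 16 of 34 cells of the *sox10:DsRed*-enriched library (47.1%, 29.8 to 64.9%) and 52 UMIs in 14 of 38 cells of the *trps1:eGFP*-enriched library (36.8%, 21.8 to 54.0%). The levels were 689 CPM (559 to 840) and 214 CPM (160 to 281). Osteoblast-like cells held 3 UMIs in 15 cells and 12 UMIs in 176 cells of the same libraries, or 19.4 CPM (4.01 to 56.8) and 11 CPM (5.66 to 19.1). All 3 UMIs of the *sox10:DsRed*-enriched cells were in cells with a barcode of both libraries. Pooled, *mmp9* was 32.4-fold higher in pre-osteoblast-like than in osteoblast-like cells (19.0 to 59.3). The ratio was 35.5 (11.8 to 175) within the *sox10:DsRed*-enriched library and 19.6 (10.3 to 40.2) within the *trps1:eGFP*-enriched library. The 4 cells with the most *mmp9* held 76.3% of its UMIs in the *sox10:DsRed*-enriched library and 69.2% in the *trps1:eGFP*-enriched library, so the difference between the libraries rests on few cells. In chondrocyte-like cells of the *sox10:DsRed*-enriched library 7 of 151 cells had 1 *mmp9* UMI each (4.64%), against 2 of 35 glia-like cells (5.71%). Whether these are stray counts was not tested.

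In mammals MMP9 is also made by osteoclasts, macrophages and neutrophils, so markers of these cells were read beside it. Of 5 osteoclast markers in the files only *ctsk* was found in pre-osteoblast-like cells (37 UMIs), and *acp5a*, *calcr*, *ocstamp* and *dcstamp* were at 0. The 7 macrophage markers summed to 7 UMIs, with *mpeg1.1*, *marco* and *mfap4* at 0. The 4 neutrophil markers summed to 14 UMIs, all 4 of them found. The summed levels in pre-osteoblast-like cells were 21.3 CPM and 16.5 CPM for the macrophage list and 14.2 CPM and 49.4 CPM for the neutrophil list in the *sox10:DsRed*-enriched and *trps1:eGFP*-enriched libraries. In osteoblast-like cells of these libraries they were 0 CPM and 7.31 CPM for the macrophage list and 0 CPM in both for the neutrophil list. The part of such cells in the *mmp9* level was not tested.

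*mmp9* and *mmp13b* were often found in the same pre-osteoblast-like cells. Of 30 cells with *mmp9*, 28 also had *mmp13b* (93.3%), against 30 of 42 cells without *mmp9* (71.4%). In the *sox10:DsRed*-enriched library all 16 *mmp9*-positive cells had *mmp13b*, against 9 of 18 *mmp9*-negative cells. In the *trps1:eGFP*-enriched library the counts were 12 of 14 and 21 of 24. Cells with *mmp9* were deeper (median 5252 UMIs, against 3299 UMIs in cells without it). At 1000 UMIs per cell *mmp13b* was kept in 84.6% of the 13 cells with *mmp9* and in 47.5% of the 59 cells without it. The thinned shares were 100% of 7 cells and 55.6% of 27 cells in the *sox10:DsRed*-enriched library, and 66.7% of 6 cells and 40.6% of 32 cells in the *trps1:eGFP*-enriched library. In chondrocyte-like cells the shares were alike, since 2 of 49 *mmp13b*-positive and 5 of 102 *mmp13b*-negative cells had *mmp9* there.

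**Figure D2:**
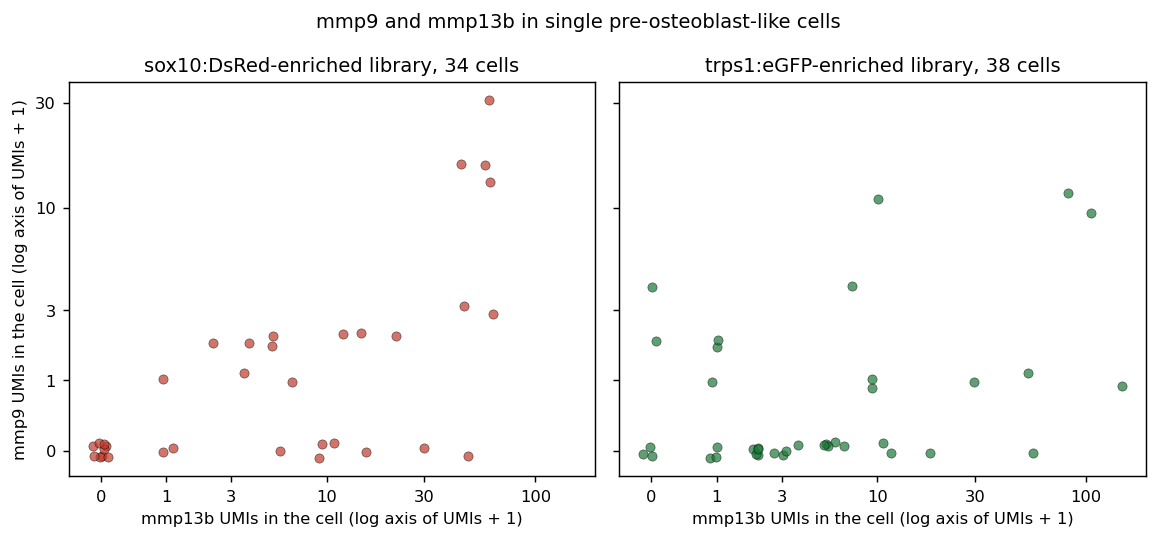
Each point is 1 pre-osteoblast-like cell, plotted by its *mmp13b* UMIs (horizontal) and *mmp9* UMIs (vertical) on log axes of UMIs + 1 with a small jitter, separately for the 34 cells of the *sox10:DsRed*-enriched library and the 38 cells of the *trps1:eGFP*-enriched library. All 16 *mmp9*-positive cells of the first library lie to the right of 0 on the *mmp13b* axis, as do 12 of 14 in the second.

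A further *mmp9* signal came from a single cell. The *ogna*-led cluster held 66 *mmp9* UMIs in 9 of 323 cells, and 54 of them were in 1 cell of 9531 UMIs. That cell held 195 *spp1* UMIs and 0 UMIs of *mmp13b*, of *bglap* and of the osteoclast, macrophage and neutrophil markers. The next highest cell of the cluster had 2 *mmp9* UMIs.

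*mmp13a*, the paralog of *mmp13b*, was close to absent from the clustered cells, with 52 UMIs in all 3769 of them against 1689 UMIs of *mmp13b*. No *mmp13a* UMI was found in pre-osteoblast-like, osteoblast-like or chondrocyte-like cells of the *sox10:DsRed*-enriched library, which allows up to 21.3, 19.4 and 6.96 CPM in these classes. In the *trps1:eGFP*-enriched library it had 7 UMIs, all in 1 of 38 pre-osteoblast-like cells, and 13 UMIs in 9 of 176 osteoblast-like cells. Epithelial-like cells, set aside before clustering, held 207 UMIs in 73 of 365 cells of that library (20%, 16.0 to 24.5%), or 96.2 CPM (83.6 to 110). *mmp13b* thus took 99.4% of the UMIs of the pair in pre-osteoblast-like cells (98.7 to 99.8%) and 2.36% in epithelial-like cells (0.770 to 5.42%).

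*mmp2*, which encodes the other gelatinase, was broadly expressed and was highest in ligamentocyte-like cells. These had 1190 UMIs in 73 of 75 cells (97.3%, 90.7 to 99.7%), or 4088 CPM (3859 to 4327). With the libraries pooled, the next levels were 2121 CPM (2042 to 2202) in the *ogna*-led cluster and 1958 CPM (1821 to 2103) in pre-osteoblast-like cells, which overlapped. In pre-osteoblast-like cells *mmp2* differed between libraries, with 109 UMIs in 17 of 34 cells (774 CPM, 636 to 934) in the *sox10:DsRed*-enriched library and 642 UMIs in 34 of 38 cells (2645 CPM, 2445 to 2858) in the *trps1:eGFP*-enriched library. All 323 cells of the *ogna*-led cluster came from the second library, and there the pre-osteoblast-like interval lay above that of the cluster. Where the ligamentocyte-like name covered a larger cluster under other settings, its level was 2480 to 2608 CPM. That range lies inside the interval of those pre-osteoblast-like cells in the reported setting. Osteoblast-like cells had 402 CPM (308 to 515) and 632 CPM (586 to 681) in these libraries. Without the barcodes of both libraries the 9 osteoblast-like cells left in the *sox10:DsRed*-enriched library had 179 CPM (89.4 to 321, 11 UMIs).

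In the cartilage *mmp2* had 178 CPM (136 to 228) in superficial chondrocyte-like cells, against 1239 CPM (1102 to 1389) in the *fgfbp2b*-led and 730 CPM (619 to 856) in the *matn1*-led chondrocyte-like subcluster. The superficial cells had an *mmp2* UMI in 40 of 103 cells (38.8%, 29.4 to 48.9%), against 114 of 151 chondrocyte-like cells of the *sox10:DsRed*-enriched library (75.5%, 67.8 to 82.1%). In the connective tissue and dermal fibroblast pool of the *trps1:eGFP*-enriched library it was found in 2122 of 3132 cells (67.8%, 66.1 to 69.4%) at 781 CPM (765 to 797). Epithelial-like cells of that library, which were deeper, had 419 UMIs in 205 of 365 cells, or 195 CPM (177 to 214), close to the superficial level. Glia-like cells had 2 UMIs. The superficial level was therefore not distinguishable from that in a class of another lineage in the same library.

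*mmp14a* and *mmp14b* encode membrane-type enzymes, and their ranges over the classes were narrower. In pre-osteoblast-like cells *mmp14a* had 305 CPM (221 to 411) in the *sox10:DsRed*-enriched and 313 CPM (247 to 391.9) in the *trps1:eGFP*-enriched library, and *mmp14b* had 291 CPM (209 to 395) and 288 CPM (225 to 364). These were the 2 genes whose levels differed least between the libraries in this class. In osteoblast-like cells *mmp14a* had 117 CPM (69.1 to 184) and 132 CPM (112 to 156), and *mmp14b* had 110 CPM (64.1 to 176) and 67.6 CPM (53.1 to 84.8). In the *sox10:DsRed*-enriched library *mmp14a* had 32.6 CPM (3.94 to 118, 2 UMIs) in the 9 osteoblast-like cells without a barcode of both libraries. Ligamentocyte-like cells had the highest *mmp14a* level, 436 CPM (364 to 519), although its interval overlapped that of the *fgfbp2b*-led chondrocyte-like cells (325 CPM, 256 to 406).

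The 2 *mmp14* paralogs separated in cartilage. Chondrocyte-like cells of both libraries held 121 *mmp14a* and 13 *mmp14b* UMIs, so that *mmp14a* took 90.3% of the pair (84.0 to 94.7%). Its share was 51.7% in pre-osteoblast-like cells (45.1 to 58.4%), 64.2% in osteoblast-like cells (57.9 to 70.07%), 61.0% in superficial chondrocyte-like cells (49.2 to 72.0%) and 59.3% in the pool of the remaining clusters (57.4 to 61.0%). The *mmp14b* level of chondrocyte-like cells in the *sox10:DsRed*-enriched library, 27.8 CPM (14.4 to 48.6), was within the interval of the glia-like cells (32.3 CPM, 3.91 to 117). *mmp14a* was at 0 in the same glia-like cells, which allows up to 48.4 CPM.

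**Figure D3:**
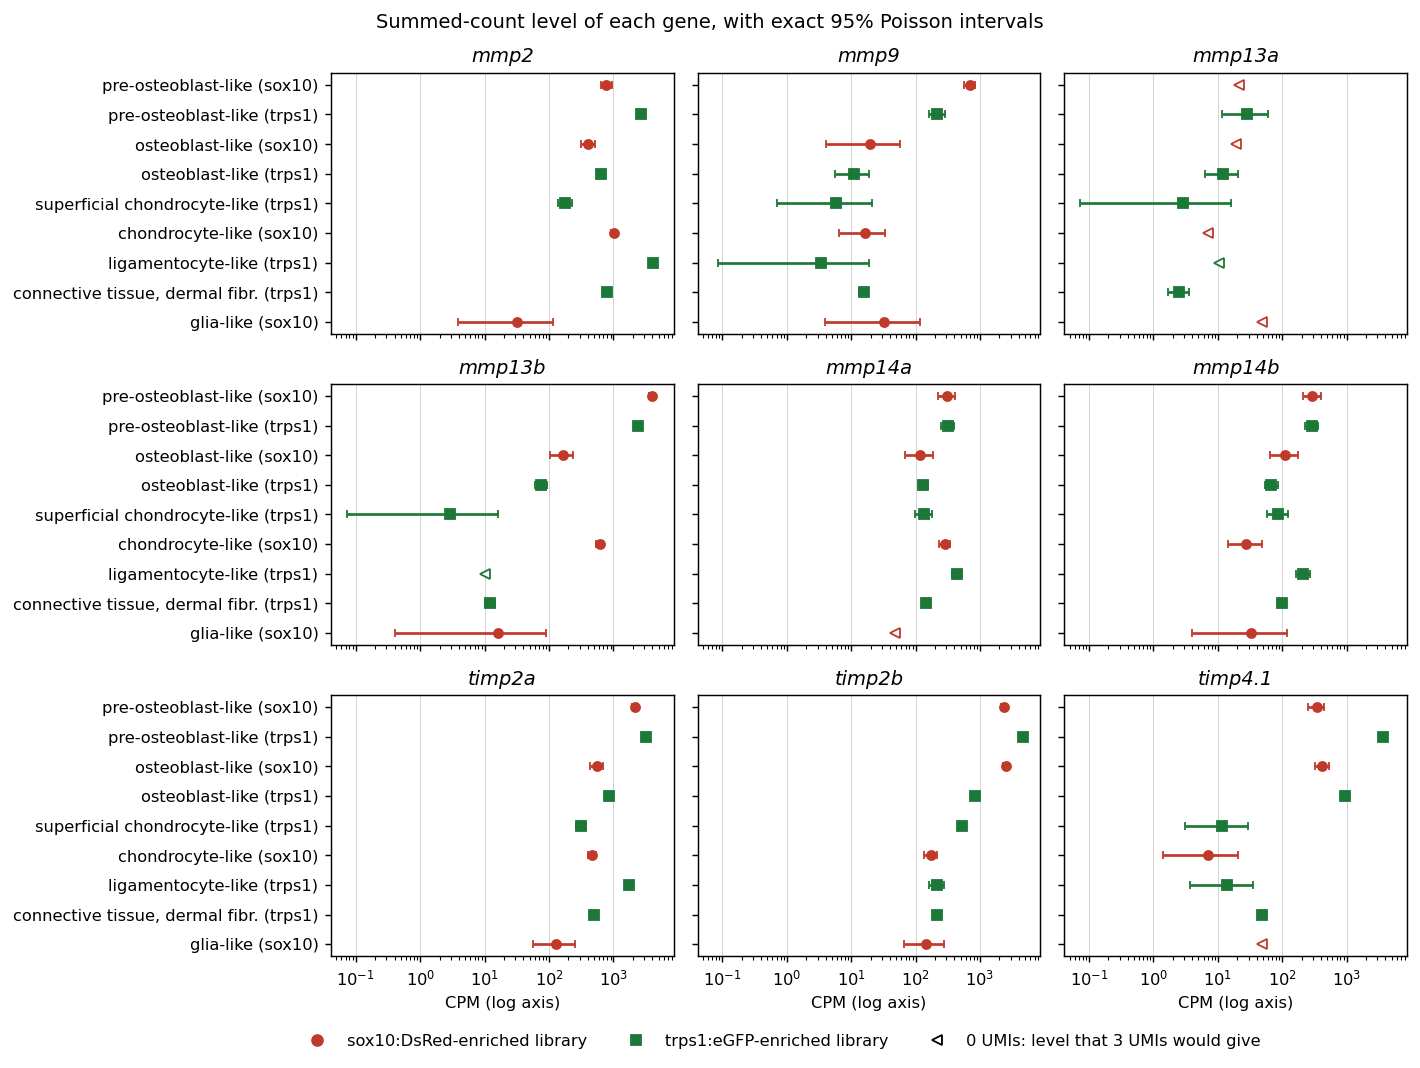
Level of each gene in CPM (log axis) in the main cell classes, by library: circles for the *sox10:DsRed*-enriched and squares for the *trps1:eGFP*-enriched library, with exact 95% Poisson intervals over UMIs. An open triangle marks the level that 3 UMIs would give where none was found. *mmp14a* and *mmp14b* lie at the same level in the pre-osteoblast-like cells of both libraries, whereas *timp4.1* lies at 341 CPM and 3712 CPM.

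Of the inhibitor genes, *timp2a* was found in every class. Its highest levels were in pre-osteoblast-like cells, with 307 UMIs in 22 of 34 cells (2180 CPM, 1943 to 2438) in the *sox10:DsRed*-enriched library and 782 UMIs in 35 of 38 cells (3222 CPM, 3000 to 3456) in the *trps1:eGFP*-enriched library. Osteoblast-like cells had 550 CPM (440 to 681) and 841 CPM (788 to 897) in these libraries. The ligamentocyte-like cells followed the pre-osteoblast-like cells in the order of levels, with 1742 CPM (1594 to 1900), then the *fgl1*-led cluster with 1119 CPM (1036 to 1206) and the *ogna*-led cluster with 1067 CPM (1012 to 1125), which overlapped.

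*timp2b* was highest in pre-osteoblast-like cells too, with 336 UMIs in 20 of 34 cells (2386 CPM, 2138 to 2655) in the *sox10:DsRed*-enriched library and 1136 UMIs in all 38 cells (4681 CPM, 4412 to 4961) in the *trps1:eGFP*-enriched library. Osteoblast-like cells had 391 UMIs in 11 of 15 cells (2532 CPM, 2287 to 2796) and 899 UMIs in 97 of 176 cells (821 CPM, 768 to 876). In the *sox10:DsRed*-enriched library the 2 classes thus overlapped, but 228 of the 391 UMIs lay in 1 osteoblast-like cell whose barcode was present in both libraries. Without such barcodes the levels in that library were 2629 CPM in 32 pre-osteoblast-like cells and 1270 CPM in 9 osteoblast-like cells. The *ctslb*-led cluster had 1288 CPM (1203 to 1378), above every other cluster of the pool, and superficial chondrocyte-like cells had 530 CPM (456 to 612).

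The balance of the 2 *timp2* paralogs differed between classes. *timp2b* took 57.5% of the UMIs of the pair in pre-osteoblast-like cells (55.5 to 59.4%), 56.2% in osteoblast-like cells (54.1 to 58.2%) and 62.7% in superficial chondrocyte-like cells (56.9 to 68.2%). The osteoblast-like value joins 82.1% (78.4 to 85.5%) in the *sox10:DsRed*-enriched library, or 65.5% (56.3 to 74.0%) without the barcodes of both libraries, and 49.4% (47.1 to 51.7%) in the *trps1:eGFP*-enriched library. In pre-osteoblast-like cells these libraries had 52.3% (48.3 to 56.2%) and 59.2% (57.0 to 61.4%). *timp2b* took 27.0% in chondrocyte-like cells (21.9 to 32.6%), 10.9% in ligamentocyte-like cells (8.46 to 13.8%) and 5.29% in the *fgl1*-led cluster (3.77 to 7.18%), where *timp2a* held 681 UMIs and *timp2b* held 38. The *ctslb*-led cluster had 61.9% (59.3 to 64.5%), within the interval of the superficial chondrocyte-like cells. Reads that match both copies of a pair cannot be assigned, and how many there were was not tested.

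*timp4.1* was found mainly in the osteoblast classes. Pre-osteoblast-like cells had 48 UMIs in 6 of 34 cells (341 CPM, 251 to 452) in the *sox10:DsRed*-enriched library and 901 UMIs in 31 of 38 cells (3712 CPM, 3474 to 3963) in the *trps1:eGFP*-enriched library. Osteoblast-like cells had 65 UMIs in 3 of 15 cells (421 CPM, 325 to 537) and 1033 UMIs in 88 of 176 cells (943 CPM, 887 to 1003). Within the *trps1:eGFP*-enriched library pre-osteoblast-like cells were 3.94-fold higher (3.60 to 4.31), and within the *sox10:DsRed*-enriched library the intervals overlapped. Of the 65 UMIs, 51 were in 1 cell, and the 9 cells without a barcode of both libraries had 212 CPM (113 to 362). That level rests on 13 UMIs, all in 1 of the 9 cells. Among the clusters of the connective tissue and dermal fibroblast pool the *coch*-led cluster had the highest share of cells with *timp4.1*, 51 of 110 (46.4%, 36.8 to 56.1%, 154 UMIs).

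Chondrocyte-like cells held 3 *timp4.1* UMIs and instead held 994 UMIs of its paralog *timp4.3*, so that *timp4.1* took 0.301% of this pair (0.0621 to 0.877%). In pre-osteoblast-like cells *timp4.1* took 97.3% (96.1 to 98.3%), and in osteoblast-like cells 70.9% (68.6 to 73.1%). *timp4.3* reached 2369 CPM in the *fgfbp2b*-led chondrocyte-like cells and was above the *timp4.1* level in 8 of the 9 clusters of the pool, the exception being the *coch*-led cluster (154 *timp4.1* and 75 *timp4.3* UMIs).

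**Figure D4:**
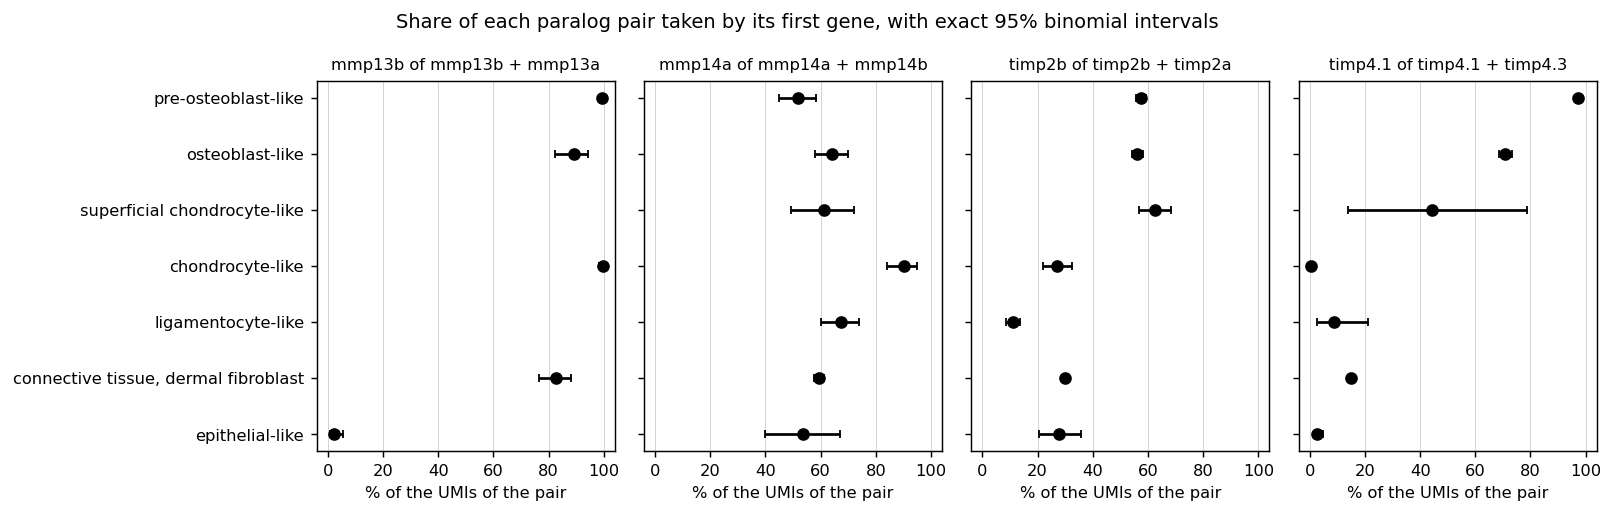
Percentage of the UMIs of each paralog pair that belonged to the gene named first, by cell class, both libraries together, with exact 95% binomial intervals (classes with fewer than 5 UMIs of a pair are left out). *mmp13b* took 99.4% in pre-osteoblast-like and 2.36% in epithelial-like cells, and *timp4.1* took 97.3% in pre-osteoblast-like and 0.301% in chondrocyte-like cells.

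The question of which genes set pre-osteoblast-like apart from osteoblast-like cells was read against all genes. A gene was called where the CPM of its summed counts, with 10 CPM added to both classes, differed at least 2-fold, among genes with at least 10 UMIs over both classes. Of the 9 genes, 8 were at least 2-fold higher in pre-osteoblast-like cells and 0 at least 2-fold lower, against 10.1% and 3.82% of the 5363 genes that passed. On this scale the log2 fold was 4.95 for *mmp13b*, 4.18 for *mmp9*, 1.88 for *timp2b*, 1.85 for *mmp14b*, 1.81 for *timp2a*, 1.68 for *mmp2*, 1.48 for *timp4.1* and 1.19 for *mmp14a*, and *mmp13a* was at 0.47. The *mmp13a* value rests on 1 pre-osteoblast-like cell with 7 UMIs. With 20 dimensions, and with epithelial and endothelial cells kept, that class had no *mmp13a* UMI and *mmp13a* was called lower (log2 -1.03 and -1.10). The *mmp14a* fold was within 2-fold (log2 0.78) once every cell was thinned to 1000 UMIs. The median over the 9 genes was 1.81, against 0.19 over all genes that passed. Since the naming markers come in part from a cluster that the study defined by *mmp9* and *mmp13b*, these counts are a description and no test. The pooled folds also mix class with library, so the counts within each library are given next.

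Within the *trps1:eGFP*-enriched library the same count was 8 higher and 0 lower, against 8.89% and 6.23% of 4702 genes. Within the *sox10:DsRed*-enriched library 8 of the 9 genes passed the minimum and 5 of them (*mmp9*, *mmp13b*, *mmp14a*, *mmp14b*, *timp2a*) were at least 2-fold higher and 0 lower, against 29.3% and 9.63% of 1827 genes. This comparison has 15 osteoblast-like cells, and its background of higher genes is the largest of all comparisons made. There *mmp2* had a log2 fold of 0.93, *timp2b* of -0.086 and *timp4.1* of -0.30. With the barcodes of both libraries left out these 3 genes had log2 folds of 2.16, 1.04 and 0.71. For *timp4.1* the osteoblast-like side of that value was 13 UMIs in 1 of 9 cells.

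Genes that act on the MMPs, and their substrates, were read from lists, and the called genes named from them were picked after their values were seen. For every pooled list count below, the share over all 5363 genes that passed was 10.1% higher and 3.82% lower. Of 21 listed genes of MMP activation and control 10 passed and 2 were called, both higher in pre-osteoblast-like cells. These were *furina*, a convertase that cuts the propeptide of membrane-type MMPs (102 CPM, against 29.6 CPM in osteoblast-like cells), and the protease inhibitor gene *serpine2* (941 CPM, against 391 CPM). Of 19 other matrix proteases 6 passed and 2 were called, both higher, at low counts: *hpse*, encoding heparanase and itself among the markers that named the pre-osteoblast-like cells, had 18 UMIs against 6 UMIs, and *fap*, encoding a membrane-bound serine protease, had 17 UMIs against 4 UMIs. Of 18 other MMP genes 2 passed and 0 were called. Of 2 other TIMP genes 1 passed, *timp4.3*, and it was lower in pre-osteoblast-like cells (log2 fold -2.25, 26 UMIs against 451 UMIs). Its log2 fold was -2.40 within the *trps1:eGFP*-enriched library and -0.91, within 2-fold, in the *sox10:DsRed*-enriched library.

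Of 9 substrate genes 6 passed, of which 1 was higher in pre-osteoblast-like cells and 5 were lower, beside 10.1% and 3.82% of all genes. Among the lower genes *col10a1a* was itself a listed osteoblast marker and picked the cluster that was split, so its direction is no independent result. Within the *trps1:eGFP*-enriched library 3 were lower (*col1a1a*, *col1a1b*, *col1a2*), against 6.23% of all genes. Within the *sox10:DsRed*-enriched library 5 were lower, against 9.63%. The bone matrix gene *spp1*, itself a marker that named the class, had 46413 CPM in pre-osteoblast-like and 3792 CPM in osteoblast-like cells. The type I collagen genes were lower, at 2516 CPM and 23597 CPM for *col1a1a* and 6020 CPM and 40310 CPM for *col1a2*. Of 13 listed regulators 12 passed and 0 were called when the libraries were pooled, and of 9 genes of the response to dissociation 9 passed and 0 were called. Within the *sox10:DsRed*-enriched library 4 of the 8 regulators that passed (*fosl1a*, *fosl2*, *jun*, *junba*) and 4 of the 9 dissociation genes (*jun*, *junba*, *ier2b*, *socs3a*) were at least 2-fold higher in pre-osteoblast-like cells, beside the 29.3% of all genes given above. Without the barcodes of both libraries these counts were 2 of 8 and 3 of 8, and in the pooled comparison 1 regulator and 2 dissociation genes were then lower. The share over all genes was not computed without these barcodes. The 9 dissociation genes summed to 2450 CPM in pre-osteoblast-like and 1567 CPM in osteoblast-like cells of the *sox10:DsRed*-enriched library, and to 10466 CPM and 12506 CPM in the *trps1:eGFP*-enriched library. Their part in the MMP and TIMP levels was not tested.

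The pre-osteoblast-like cells of the 2 libraries were then set against each other. Of the 8 genes that passed, 1 (*mmp9*, 3.21-fold, 2.27 to 4.59) was at least 2-fold higher in the *sox10:DsRed*-enriched than in the *trps1:eGFP*-enriched library, and 2 were lower, *timp4.1* by 10.9-fold (8.14 to 14.9) and *mmp2* by 3.42-fold (2.79 to 4.23). The background was 13% higher and 16.1% lower of 2477 genes. The *mmp13b* level was 1.62-fold higher (1.44 to 1.82, log2 0.69 on the scale with 10 CPM added). It passed 2-fold with an upper limit of 3000 genes (log2 1.04), with epithelial and endothelial cells kept (1.13) and at 1000 UMIs per cell. *timp2b* (log2 -0.97) was called lower at resolution 0.6, at resolution 1.2, with the limit of 3000 genes and at 1000 UMIs per cell, with log2 folds of -1.01 to -1.19. Leaving out the 2 shared barcodes gave 3.63-fold, 10.5-fold, 3.17-fold and 1.77-fold for *mmp9*, *timp4.1*, *mmp2* and *mmp13b*. Sort, library and depth differ together here and cannot be told apart. The share of cells with *tnfrsf11b* or *bglap* differed as well, as given above, so the cluster may hold unlike cells in the 2 libraries.

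Against chondrocyte-like cells of the *sox10:DsRed*-enriched library, 6 of the 8 genes that passed were at least 2-fold higher in pre-osteoblast-like cells and 0 lower, against 9.71% and 30% of 3739 genes. Besides *mmp13b* these were *mmp9* (42.4-fold, 19.8 to 108), *timp2b* (13.9-fold, 10.8 to 18.1), *mmp14b* (10.5-fold, 5.39 to 21.9), *timp2a* (4.72-fold, 3.94 to 5.67) and *timp4.1*, whose ratio of 49.0 (15.8 to 246) rests on 48 UMIs against 3 UMIs. *mmp2* (log2 fold -0.39) and *mmp14a* (0.12) were within 2-fold. The median over the 8 genes was 2.83, against -0.41 over all genes that passed.

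Superficial chondrocyte-like cells had 2 genes at least 2-fold higher (*timp2b*, 3.06-fold, 2.34 to 4.05, and *mmp14b*, 2.94-fold, 1.49 to 6.15) and 2 at least 2-fold lower (*mmp2* and *mmp13b*) than chondrocyte-like cells, of 7 that passed. The background was 21% higher and 17% lower of 5022 genes. At 1000 UMIs per cell *mmp14b* was within 2-fold (log2 0.70). *mmp14a*, at a log2 fold of -0.96, was called lower with a mitochondrial limit of 10% (-1.05), without the top 5% of Scrublet scores, a doublet measure (-1.13), at 1000 UMIs per cell (-1.21) and with 1 CPM added in place of 10 CPM (-1.01). *mmp2* was lower by 5.64-fold (4.32 to 7.48), with 62 UMIs in 103 superficial cells and 446 UMIs in 154 chondrocyte-like cells. For *mmp13b*, with 1 UMI against 294 UMIs, the level was 231-fold lower in the superficial cells (41.1 to 9137). Nearly all cells of these classes came from different libraries, so class and library cannot be told apart in this comparison.

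Within the *trps1:eGFP*-enriched library the superficial cells could be compared with the connective tissue and dermal fibroblast pool. *timp2b* was the 1 gene at least 2-fold higher (2.47-fold, 2.12 to 2.87), and *mmp2* (4.40-fold, 3.43 to 5.74) and *timp4.1* (4.22-fold, 1.64 to 15.5, with 4 UMIs in superficial cells) were lower. All 9 genes passed, and the background was 6.65% higher and 4.95% lower of 13950 genes. *mmp14a* and *mmp14b* had log2 folds of -0.10 and -0.20.

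Osteoblast-like cells of the same library had 3 genes at least 2-fold higher than the pool and 0 lower, against 1.74% and 7.88% of 14067 genes. These were *timp4.1* (19.5-fold, 17.6 to 21.7), *mmp13b* (6.22-fold, 4.69 to 8.21) and *timp2b* (3.83-fold, 3.55 to 4.14). Most of the *mmp13b* UMIs of the pool were those of the *ctslb*-led cluster given above.

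Ligamentocyte-like cells had 4 genes at least 2-fold higher than the pool and 2 lower, against 2.84% and 3.54% of 13904 genes. The higher genes were *mmp2* (5.24-fold, 4.93 to 5.56), *timp2a* (3.47-fold, 3.16 to 3.80), *mmp14a* (3.00-fold, 2.49 to 3.60) and *mmp14b* (2.13-fold, 1.62 to 2.75). The lower genes were *timp4.1* (4 UMIs) and *mmp13b* (0 UMIs). For *mmp13b* the limit of 3 UMIs is 10.3 CPM in ligamentocyte-like cells, while the exact Poisson interval reaches 12.7 CPM. The pool had 12.2 CPM, between these 2 limits, so a difference in *mmp13b* was not resolved at this depth. Under 7 of the other settings the name covered a larger cluster of 373 to 433 cells, which took in cells of the *ogna*-led cluster. There the *mmp2* level was 2480 to 2608 CPM, its log2 fold over the pool was 1.99 to 2.07 (2.37 in the 75 cells), and *timp4.1* was within 2-fold of the pool. *mmp9* (log2 -0.93 and 1 UMI in the 75 cells) turned to higher there, with log2 folds of 1.25 to 1.41 on 66 to 70 UMIs. Of these, 54 UMIs were in 1 cell, as many as in the single cell of the *ogna*-led cluster described above. *mmp14b* (log2 1.02 in the 75 cells) was within 2-fold under those settings, with a mitochondrial limit of 10% and at 1000 UMIs per cell.

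In single cells of the pool, *mmp2* and *timp2a* were found together in 1573 of 3132 cells. *timp2a* was found in 74.1% of the 2122 cells with *mmp2* and in 46.1% of the 1010 cells without it. *mmp14a* was found in 42.4% and 20.1% of these cells, *mmp14b* in 32.4% and 18.5%, and *timp2b* in 26% and 19.2%. Cells with *mmp2* were deeper (median 4006.5 UMIs, against 2651 UMIs without it). At 1000 UMIs per cell the shares were 41.4% and 25.6% for *timp2a* and 15.4% and 10.2% for *mmp14a*. They were 10.3% and 9.13% for *mmp14b*, and 11.6% and 10.3% for *timp2b*.

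The summed level of the proteases and inhibitors was then compared by class, as CPM of transcripts and not as protein. The 6 MMP genes summed to 5979 CPM and 5913 CPM in pre-osteoblast-like cells of the *sox10:DsRed*-enriched and *trps1:eGFP*-enriched libraries. The 3 TIMP genes summed to 4907 CPM and 11615 CPM there, which is 0.821 (0.741 to 0.909) and 1.96 (1.84 to 2.09) TIMP UMIs per MMP UMI. The MMP sums of the libraries were thus close and the TIMP sums were not. The close MMP sums join opposite differences given above. In the *sox10:DsRed*-enriched library *mmp2* was lower, and *mmp13b* and *mmp9* were higher.

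In osteoblast-like cells the ratios were 4.33 (3.56 to 5.30) and 2.80 (2.61 to 3.01) in these libraries, with MMP sums of 810 CPM and 931 CPM. Without the barcodes of both libraries the *sox10:DsRed*-enriched cells had a sum of 472 CPM (29 UMIs) and a ratio of 4.55 (3.03 to 7.06). Superficial chondrocyte-like cells had 2.09 TIMP UMIs per MMP UMI (1.71 to 2.57), at an MMP sum of 409 CPM. Ligamentocyte-like cells had 0.415 (0.376 to 0.458), with *mmp2* as 4088 of their 4741 CPM. Chondrocyte-like cells of the *sox10:DsRed*-enriched library had 0.329 (0.286 to 0.377), but 1.43 once *timp4.2* and *timp4.3* were counted. The pool had 0.724 (0.705 to 0.744), and 0.986 with those 2 genes. The 18 other MMP genes were not added to the MMP sums, so the ratios with those 2 genes are one-sided.

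**Figure D5:**
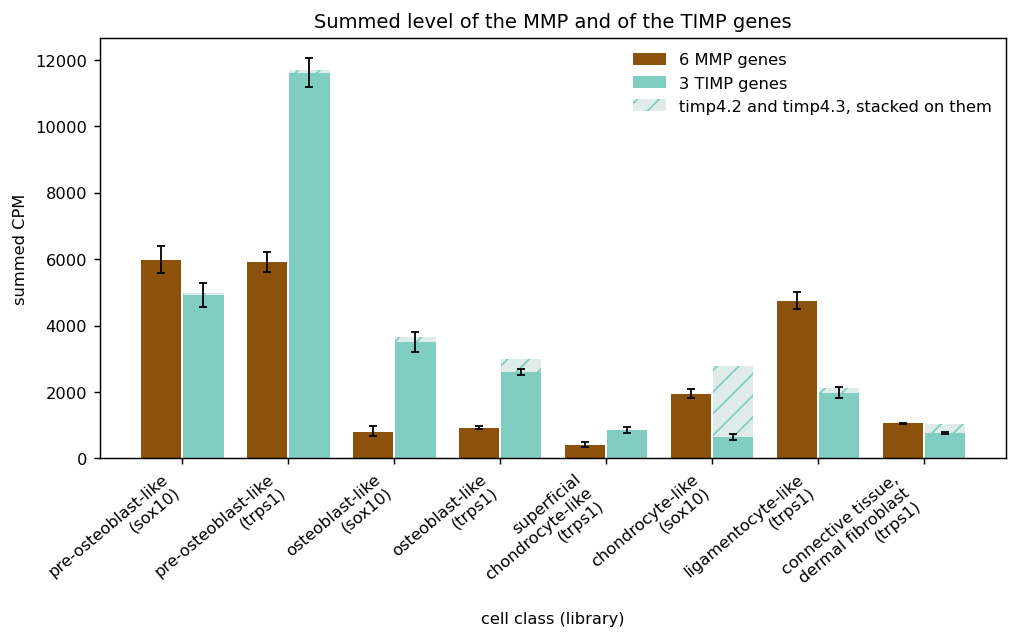
Summed CPM of the 6 MMP genes (brown) and the 3 TIMP genes (green) in each cell class and library, with *timp4.2* and *timp4.3* hatched on top and exact 95% Poisson intervals on the solid bars. The MMP bars of the pre-osteoblast-like cells are nearly equal (5979 and 5913 CPM), the TIMP bars are not (4907 and 11615 CPM), and in chondrocyte-like cells the hatched part exceeds the solid TIMP bar.

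The genes with the most similar pattern were found by Pearson's r of log2(CPM + 10) over the 16 clusters, among 6383 genes with at least 100 UMIs. These values describe clusters that share libraries and depth. For *mmp9* they were *tnfrsf11b* (r = 0.87), the gene of a decoy receptor that limits osteoclast formation in mammals, *nfe2* (0.84) and *eif3ha* (0.80), and for *timp2b* *tnfrsf11b* (0.85), *tenm3* (0.85) and *nfe2* (0.84). *tnfrsf11b* and *nfe2* were among the markers that named the pre-osteoblast-like cells. In those cells *tnfrsf11b* was found in 26 of 58 cells with *mmp13b* and in 0 of 14 cells without it, which allows a *tnfrsf11b* UMI in up to 21.4% of such cells, and the cells without *mmp13b* were shallower (median 4719.5 UMIs with and 1978.5 UMIs without *mmp13b*). At 1000 UMIs per cell the pooled order turned round, with *tnfrsf11b* in 7.69% of 39 cells with *mmp13b* and in 15.2% of 33 cells without it. This came from the *trps1:eGFP*-enriched library (11.8% of 17 cells and 23.8% of 21 cells). In the *sox10:DsRed*-enriched library the shares were 4.55% of 22 cells and 0% of 12 cells. All these shares rest on few cells.

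For *mmp13b* the nearest were *hmgcra* (0.92), which encodes the rate-limiting enzyme of cholesterol synthesis, the cell cycle phosphatase gene *cdc25b* (0.90) and *spns2* (0.89). For *mmp2* they were *si:dkey-12l12.1* (0.91), *kctd12.2* (0.88) and *mxra8a* (0.87). For *mmp14a* they were *crtap* (0.92), whose product takes part in collagen prolyl hydroxylation, *olfml3b* (0.92) and *cs* (0.91), and for *mmp14b* *scpep1* (0.89), *bloc1s6* (0.88) and *mgst3a* (0.86). For *timp2a* *BX957317.1* (0.84) and *tbc1d16* (0.84) were among the nearest, and for *timp4.1* the nearest were *zgc:172122* (0.83), *bmp8a* (0.81) and *tiam1a* (0.78). *mmp13a* had under 100 UMIs and was not ranked.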

How the data were processed

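Per the labels, the authors aligned the reads of 2 droplet libraries (10x 3′ chemistry) to GRCz11 with Cell Ranger 3.0.0 and deposited whole-number UMI counts per gene and barcode, with no normalization. No count was changed before use.

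Cells with 500 to 2000 genes and at most 5% mitochondrial UMIs (12 features) were kept, 242 of 462 barcodes and 3919 of 4876 barcodes. Their totals ranged around a median of 2561 UMIs and 3526.5 UMIs per clustered cell, which limits the detection of low genes. Epithelial-like and endothelial-like cells were set aside. Clustering followed the settings of the study in Seurat 5.3.0 (R 4.3.3): 2000 variable features, 50 principal components, 38 dimensions, Louvain resolution 0.9, osteoblast and chondrocyte clusters split at 0.2 and 0.5. The 29 MMP and TIMP features were left out of the variable features and of the marker lists. A name needed at least 3 markers in 5% of the cells of a cluster at 2-fold or more over other cells. Scrublet (scanpy 1.11.5) marked 1 of 462 and 0 of 4876 barcodes as doublets, so it did not work on these libraries and no doublet was removed. As an alternative, the barcodes in the top 5% of its scores were left out. Scores tied at the limit were included, so this took out 41 of 462 and 258 of 4876 barcodes.

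UMIs were summed over the cells of a class and divided by the total of the class (CPM). Intervals are exact Clopper-Pearson for shares and exact Poisson for levels, and ratios carry exact binomial intervals, all at 95% and for counting error only. For a count of 0 the limit is 3 UMIs. Fold calls used CPM + 10, at least 10 summed UMIs and 2-fold. Python 3.11.15, numpy 2.4.6, scipy 1.17.1 and matplotlib 3.10.9 were used, and the fold step was tested on simulated counts. UMI counts were taken at the 3′ end and not scaled to gene length.

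The 9 genes, the gene lists and the markers were chosen with earlier results of these data known. All 9 genes are given in every class. From each list the rule named up to 3 genes with the highest CPM, and for each of the 9 genes with at least 100 UMIs the 3 genes of most similar pattern. Some genes named by this rule are not reported here. The comparison of ligamentocyte-like cells with the pool and the comparisons within each library were added after the data were examined. The study describes the gate of the second sort both as GFP-positive and as positive for both transgenes. The labels name it by *trps1:eGFP*, and it was taken as GFP-positive.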

Additional observations from a re-analysis of the deposited data

Results flagged for a closer look

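*timp2b* and *timp4.1* had opposite signs in the 2 libraries when pre-osteoblast-like cells were set against osteoblast-like cells. In the *sox10:DsRed*-enriched library their log2 folds were -0.086 and -0.30, and in the *trps1:eGFP*-enriched library 2.50 and 1.97. The difference between the libraries was not tested, since each sort has 1 library. Without the barcodes present in both libraries, which took out 6 of the 15 osteoblast-like cells of the *sox10:DsRed*-enriched library, its log2 folds were 1.04 for *timp2b* and 0.71 for *timp4.1*. One of those cells held 228 of the 391 *timp2b* UMIs of its class. That cell had 12217 UMIs, of which 1343 were *spp1*, and no *bglap* or *mmp13b* UMI. The *timp4.1* fold without these barcodes rests on 13 UMIs, all in 1 of the 9 osteoblast-like cells left.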

How the results depend on the processing

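No paired analysis was possible because each sort has 1 library. The share of pre-osteoblast-like cells with *mmp13b* (80.6%) was 90.3% with 20 dimensions, 54.2% at 1000 UMIs per cell and 68.1% with at least 2 UMIs, and that with *mmp9* (41.7%) was 18.1% at 1000 UMIs per cell and 29.2% with at least 2 UMIs. The log2 fold of *mmp13b* over osteoblast-like cells (4.95) was 4.73 at resolution 0.6, 4.70 without the top 5% of Scrublet scores and 4.51 in the *sox10:DsRed*-enriched library alone, the lowest of all alternatives run, whose highest was 5.28. In that library 5 of the 9 genes, not 8, were at least 2-fold higher, and *timp2b* (-0.086) and *timp4.1* (-0.30) changed sign. The cause was not tested. The share of the connective tissue and dermal fibroblast pool with *mmp2* (67.8%) was 65.0% with the MMP and TIMP genes kept among the variable features, 65.2% at resolution 0.6, 65.0% with 20 dimensions, 58.1% with a lower limit of 200 genes, 65.3% with an upper limit of 3000 genes, 65.2% with epithelial and endothelial cells kept, 64.3% without the top 5% of Scrublet scores, 39.8% at 1000 UMIs per cell and 45.9% with at least 2 UMIs. Pre-osteoblast-like cells numbered 59 to 85 over the clusterings. Those of the *sox10:DsRed*-enriched library, 34 in the reported setting, numbered 22 with 20 dimensions and with a lower limit of 200 genes, and 38 at resolution 1.2. Of the values of single genes, 822 folds stayed within their counting interval and 183 did not, and 562 of the shares stayed and 176 moved. Of these 822 folds, 76 came from dropping the minimum of summed UMIs, which leaves a fold unchanged by construction. A further 76 came from adding 1 CPM in place of 10 CPM. These could not move either, since each interval holds both the plain ratio and the reported fold. Shares of superficial chondrocyte-like and ligamentocyte-like cells in the *trps1:eGFP*-enriched library alone also could not move, since these classes held only cells of that library. Of all 1005 folds under an alternative, 2 of those at least 2-fold in the reported setting changed sign (*timp2b* and *timp4.1*, above). A further 54 within 2-fold changed sign, and 14 of these became at least 2-fold. They were 7 of *mmp9* in ligamentocyte-like cells over the pool, 5 of *mmp13a* in pre-osteoblast-like over osteoblast-like cells (pooled or within the *trps1:eGFP*-enriched library), *timp2b* within the *sox10:DsRed*-enriched library without the barcodes of both libraries, and *mmp14a* in superficial over chondrocyte-like cells in the *trps1:eGFP*-enriched library alone (log2 3.85), which has 3 chondrocyte-like cells. Leaving out the barcodes present in both libraries was chosen after seeing the data. Depth limits the low genes most, since a count of 0 in the 34 pre-osteoblast-like cells of the *sox10:DsRed*-enriched library allows up to 21.3 CPM.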

Other observations

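Among the other MMP genes none came near the levels of *mmp2*, *mmp13b* or *mmp14a* in the clustered cells. *mmp16a* was highest in the *fgl1*-led cluster (28 UMIs, 46.0 CPM, 30.6 to 66.5), *mmp15a* in ligamentocyte-like cells (10 UMIs, 34.4 CPM, 16.5 to 63.2) and *mmp17a* in pre-osteoblast-like cells (9 UMIs in 9 of 72 cells, 23.5 CPM, 10.7 to 44.5). Epithelial-like cells held 671 UMIs of *mmp30* in 197 of 366 cells (311 CPM, 288 to 335), beside the *mmp13a* described above.

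Of the listed genes of MMP activation and control, *serpine2* was highest in superficial chondrocyte-like cells (1137 CPM, 1028 to 1254), followed by pre-osteoblast-like cells (941 CPM, 847 to 1044), and these intervals overlapped. *bsg*, whose product is known in mammals as an inducer of MMPs, had 493 CPM in the *pck1*-led cluster. Of the other matrix proteases, *ctsk* had 301 CPM in the *mamdc2b*-led cluster and 299 CPM in ligamentocyte-like cells, *adamts1* had 202 CPM in the *fgl1*-led cluster, and *adamts2* had 85.9 CPM in ligamentocyte-like cells. The AP-1 genes *fosab*, *junba* and *jun*, which are both listed regulators and genes of the response to dissociation, had 19699, 6161 and 5461 CPM in the *pck1*-led cluster. *hsp70.3*, a heat shock gene of the same response list, had 12762 CPM in the *glis1b*-led cluster.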
